A study of Mus musculus with 6 samples.

Results

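The fast-fibre and general sarcomere genes are 39 genes of the contractile apparatus of striated muscle, chosen by name as fast-twitch myosin, actin, troponin, Z-disc and M-band components together with muscle isoforms of glycolytic enzymes. All 39 were found by symbol among the 54131 annotated genes of the count table, and 38 passed the filter on low counts that left 18114 genes for testing. The exception was Mybph. Expression was read from 6 libraries of total RNA from interscapular brown fat, a thermogenic depot of the upper back. Of these, 3 came from wild-type mice and 3 from ADCY3∆AT mice, both C57BL/6N. The ADCY3∆AT mice lack a truncated form (AT) of the cyclic AMP-producing enzyme adenylyl cyclase 3 that cold induces. Both groups were 20 weeks old, had been moved from chow to a high-fat diet at 8 weeks, which lasted 12 weeks, and had spent 24 h at 4 °C. The labels state neither the sex of the animals nor whether each replicate was a separate animal, so p-values measure the spread between these libraries, which may be partly technical. Sample labels give the depot as interscapular, while the design text of the series gives inguinal.

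A sarcomere is built from myosin thick filaments and actin thin filaments that slide past each other. Troponin and tropomyosin on the thin filament make sliding depend on calcium, Z-discs anchor thin filaments, M-bands hold thick filaments together, and the giant protein titin spans from the Z-disc to the M-band. Fast fibres use their own isoforms of myosin, troponin and several enzymes. Brown adipocytes share a developmental origin with skeletal muscle, and the depot lies against muscles of the back.

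Library totals ranged from 44826777 to 54933588 estimated counts, so 3 counts, the limit that a count of 0 allows, equalled a scaled count (CPM, normalised to library size) of 0.0547 to 0.0681. Adcy3 had 677, 728 and 652 CPM in wild type against 349, 342 and 506 CPM in ADCY3∆AT. Its log2 fold change was -0.78 ± 0.14 (SE) and did not pass over all genes (edgeR quasi-likelihood test, adjusted p = 0.158), whereas DESeq2 called it lower (adjusted p = 4.26e-07). A row with no entry in the annotation, ENSMUSG66666620654, had 629, 552 and 477 CPM in wild type and 0 in each ADCY3∆AT library. Brown adipocyte markers were abundant in every library, the sum of 10 marker genes being 15040 to 15235 CPM in wild type and 14245 to 14424 CPM in ADCY3∆AT. Each ADCY3∆AT sum thus lay under each wild-type sum, but most of every sum was Ucp1, whose log2 fold change was -0.06. Of the 10 markers 7 had a negative and 3 a positive log2 fold change. Adrb3 was higher in every ADCY3∆AT library (229, 227 and 232 CPM) than in any wild-type library (221, 203 and 187 CPM). Of the 10 markers 0 passed in edgeR and only Elovl3 was called in DESeq2, as lower (adjusted p = 0.0332). Myofibre genes outside the 39 set the libraries apart. A list of 20 other muscle genes, less the 2 that brown fat also expresses strongly, Mb and Fbp2, summed to 207, 147 and 432 CPM in wild type. In ADCY3∆AT the same sum was 1.53, 25.4 and 65.2 CPM. ADCY3∆AT replicate 1 was therefore the library with least muscle RNA, and it was also the lowest with Mb and Fbp2 counted.

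Promoter sequences are shown first for 6 genes that mark the range of behaviour described further on. Myh4, Acta1 and Klhl41 had log2 fold changes under -2 between the groups. Myl1, Des and Myom1 were the 3 genes that stayed highest relative to wild type in the library with least muscle RNA. Each sequence is the 250 bases before the RefSeq start site in GRCm38.p6, written 5′ to 3′ along the gene's strand. The positions are chr11:67237562-67237811 on the plus strand for Myh4, chr8:123894776-123895025 on the minus strand for Acta1, and chr2:69669870-69670119 on the plus strand for Klhl41. They are chr1:66945057-66945306 on the minus strand for Myl1, chr1:75360042-75360291 on the plus strand for Des, and chr17:71019307-71019556 on the plus strand for Myom1. Those of Myl1 and Myom1 lie inside the annotated genes (chr1:66924295-66945404 and chr17:71002633-71126856), downstream of the outermost annotated start. Which start was used in this tissue was not measured. Capitals mark matches to the E-box CANNTG, which MyoD-family factors bind, to the MEF2 motif and to the CArG box that serum response factor binds, searched on both strands.
Myh4: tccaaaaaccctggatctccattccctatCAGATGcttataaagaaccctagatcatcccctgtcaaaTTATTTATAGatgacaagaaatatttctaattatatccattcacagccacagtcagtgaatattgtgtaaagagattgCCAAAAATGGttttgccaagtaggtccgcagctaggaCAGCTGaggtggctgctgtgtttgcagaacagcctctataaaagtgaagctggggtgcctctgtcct
Acta1: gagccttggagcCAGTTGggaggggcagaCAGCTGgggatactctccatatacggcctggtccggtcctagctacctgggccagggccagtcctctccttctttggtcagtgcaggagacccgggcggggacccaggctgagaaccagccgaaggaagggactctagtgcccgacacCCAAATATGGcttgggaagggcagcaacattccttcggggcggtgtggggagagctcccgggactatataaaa
Klhl41: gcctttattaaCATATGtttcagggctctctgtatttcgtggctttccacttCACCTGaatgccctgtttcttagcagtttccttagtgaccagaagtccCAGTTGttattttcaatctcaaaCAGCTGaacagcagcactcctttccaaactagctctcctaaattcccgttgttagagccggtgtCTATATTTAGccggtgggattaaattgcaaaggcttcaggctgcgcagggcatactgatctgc
Myl1: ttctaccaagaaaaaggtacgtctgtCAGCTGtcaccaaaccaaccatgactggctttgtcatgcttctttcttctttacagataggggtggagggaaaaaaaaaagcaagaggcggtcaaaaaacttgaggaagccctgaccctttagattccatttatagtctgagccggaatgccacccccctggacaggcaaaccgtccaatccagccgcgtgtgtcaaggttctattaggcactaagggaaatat
Des: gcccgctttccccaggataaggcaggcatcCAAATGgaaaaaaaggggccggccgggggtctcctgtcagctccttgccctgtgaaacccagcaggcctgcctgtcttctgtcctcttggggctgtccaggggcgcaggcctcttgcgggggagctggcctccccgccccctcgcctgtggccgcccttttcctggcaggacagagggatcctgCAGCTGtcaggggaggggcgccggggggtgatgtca
Myom1: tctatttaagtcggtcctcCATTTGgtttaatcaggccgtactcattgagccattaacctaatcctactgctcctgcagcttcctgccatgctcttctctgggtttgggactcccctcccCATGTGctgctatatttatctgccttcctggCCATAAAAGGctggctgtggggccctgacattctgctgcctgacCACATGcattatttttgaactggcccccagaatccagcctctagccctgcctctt
None of the matches in these 6 sequences overlapped another. RefSeq held promoters for 28 of the 39 genes, 29 promoters in all. An E-box lay in 23 of these 29 and in 66.2% of all 32851 promoters of the same length, a MEF2 match in 7 of 29 against 2.92%, and a CArG match in 5 of 29 against 1.47%. MEF2 matches belonged to Klhl41, Myh1, Myh4, Pgam2, Ttn, Usp13 and Xirp2, and CArG matches to Acta1, Ldb3, Myh4 and Myom1. These are letter matches only, and no binding was measured.

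Levels of nearly all 39 genes were lower in ADCY3∆AT, and they varied widely within each genotype. All 38 tested genes had a negative log2 fold change, against 49.1% of all tested genes, with a median of -2.79 beside 0.00 over all genes. Libraries did not overlap, with every ADCY3∆AT value under every wild-type value, for 35 of 39 genes, against 8.83% of all genes tested, and the opposite held for 0 of 39, against 7.68%. The 4 genes outside the 35 were Mybph, Myom1, Myoz3 and Trim63. The tests of single genes gave different counts by tool. In all, 0 of 38 passed an adjusted p of 0.05 in edgeR, where 0.00552% of all genes were called lower, and 37 of 38 were lower at an unadjusted p under 0.05, against 5.78% of all genes, and 0 higher, against 5.23%. DESeq2 called 14 of 39 lower and 0 higher, against 0.706% of its tested genes called lower and 0.441% called higher. limma voom called 0 of 38, against 0.00552%. Without a low-count filter edgeR called 32 of 39, against 0.505%, and without ADCY3∆AT replicate 3 it called 3, Klhl41, Ldb3 and Lmod2, against 0.21%. In bulk tissue, fewer muscle fibres in the sample and less RNA per fibre cannot be told apart. Nor does bulk tissue show whether these transcripts came from cells of the depot or from the adjacent back muscles. The sum of other muscle genes given above moved with these levels, and its part in them was not tested.

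**Figure D1:**
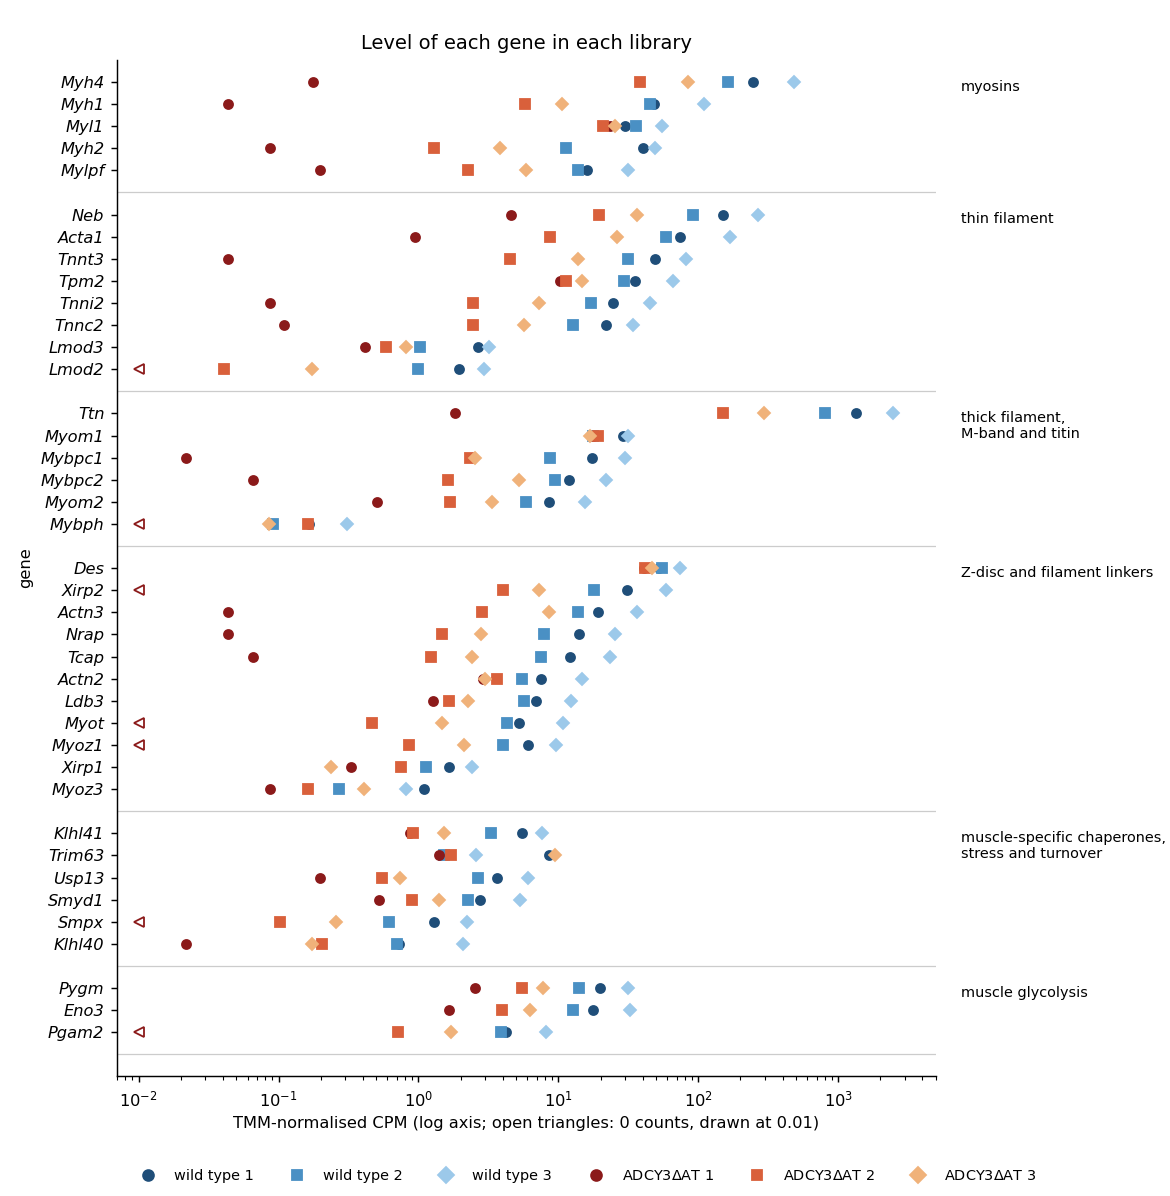
TMM-normalised CPM of the 39 genes in the 3 wild-type and 3 ADCY3∆AT libraries, on a log axis and grouped by role, with open triangles for 0 counts drawn at 0.01. For 35 of the genes all ADCY3∆AT points lie left of all wild-type points, and ADCY3∆AT replicate 1 is the lowest library for 36.

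The same library was highest, and the same library lowest, for most of the genes. Wild-type replicate 3 was the highest of all 6 for 37 of 39 genes, against 14.3% of all genes tested. ADCY3∆AT replicate 1 was the lowest for 36 of 39, against 19.7%, the others being Myl1, Myom1 and Xirp1. This library had already been singled out above by its low sum of other muscle genes. The sum over the 39 genes was 2359, 1528 and 4344 CPM in wild type against 113, 366 and 663 CPM in ADCY3∆AT. Within wild type alone the highest library exceeded the lowest by more than 2-fold for 35 of the 38 tested genes, against 10.2% of all tested genes, with a median ratio over the 39 of 2.65 beside 1.19 over all genes.

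**Figure D2:**
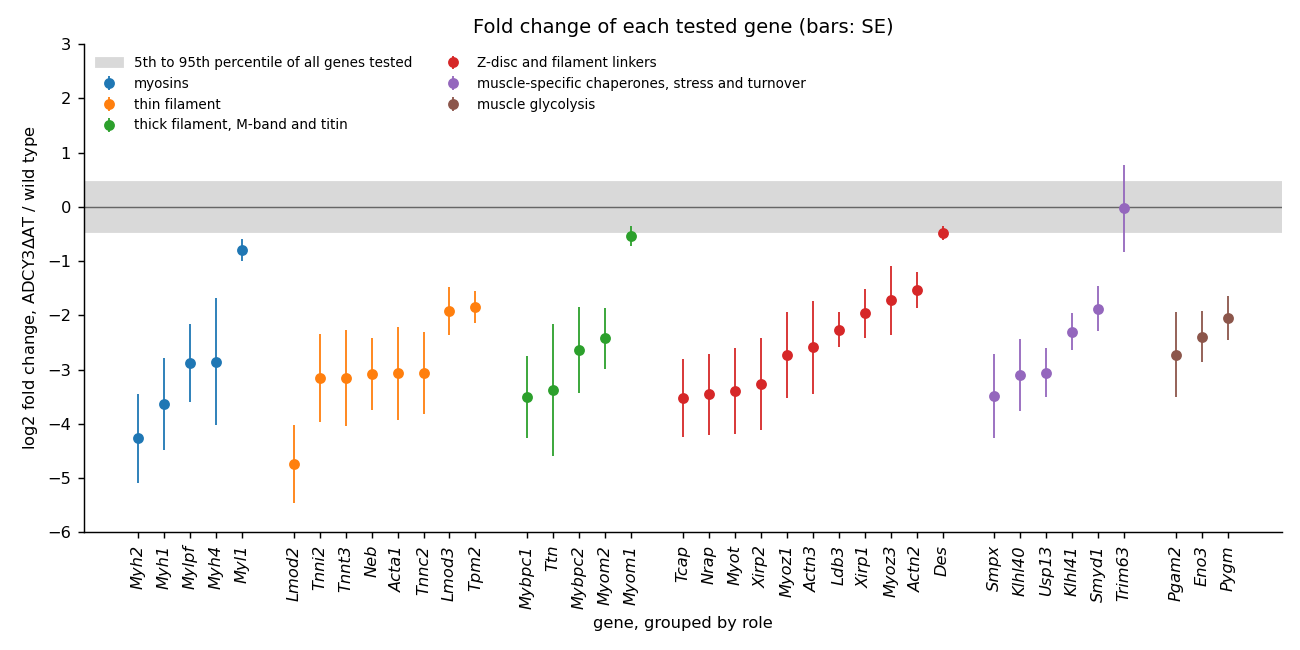
Log2 fold change of the 38 tested genes, ADCY3∆AT relative to wild type, with bars for the SE and a grey band for the 5th to 95th percentile of all genes tested (-0.47 to 0.46). Only the point of Trim63 lies inside the band, and Des and Myom1 lie just under it.

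The fast myosin heavy chains, the motors of fast fibres, did not overlap between the groups. Of the 5 myosin genes all 5 did not overlap, 0 were called in DESeq2, and the median log2 fold change was -2.88. Beside this and the later counts by role and list stand the shares over all genes. These were 8.83% not overlapping and lower, 5.78% lower at an unadjusted p under 0.05 in edgeR, and 0.706% called lower in DESeq2. Myh4, the heavy chain of the fastest fibres (chr11:67238029-67260446, GRCm38, plus strand), had 245, 164 and 481 CPM in wild type against 0.175, 38.2 and 84.4 CPM in ADCY3∆AT. The groups did not overlap, but both were spread over more than 2-fold, and the log2 fold change of -2.86 ± 1.17 (SE) did not pass (edgeR adjusted p = 0.424). Myh1, the heavy chain of intermediate fast fibres, had 48.4, 45.3 and 110.6 CPM in wild type against 0.0437, 5.79 and 10.6 CPM in ADCY3∆AT. Myh2, of fast oxidative fibres, had 40.5, 11.2 and 49.3 CPM in wild type against 0.0875, 1.30 and 3.85 CPM in ADCY3∆AT. Its log2 fold change was -4.27 ± 0.82 and that of Myh1 -3.63 ± 0.85 (edgeR adjusted p = 0.158 and 0.214). These values carry a limit of annotation. Of the 31-base words in Myh1 transcripts 42.9% also occur in another gene, and the shares are 34.5% for Myh2 and 30.4% for Myh4. The split of reads between these genes is less certain for that reason, by an amount that was not measured.

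The fast light chains behaved differently from each other. Mylpf, the regulatory light chain of fast fibres, followed the heavy chains, with 16.1, 13.7 and 31.7 CPM in wild type against 0.197, 2.28 and 5.85 CPM in ADCY3∆AT. Myl1, the essential light chain that binds the same heavy chains (chr1:66924295-66945404, minus strand), had 30.1, 36.1 and 54.9 CPM in wild type against 23.4, 20.9 and 25.4 CPM in ADCY3∆AT. The Myl1 groups still did not overlap, yet the library with least muscle RNA was not the lowest of the 3. Its log2 fold change was -0.80 ± 0.20 (SE, edgeR adjusted p = 0.232). In Myl1, 14.5% of the 31-base words also occur in the pseudogene Mylf-ps, which was listed at 0 in all 6 libraries.

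Myosin heavy chain composition was compared per length, as CPM per kilobase of exon, including the slow chain Myh7. In wild type Myh4 made up 71.3%, 72.2% and 72.0% of the summed level of the 4 chains. In ADCY3∆AT replicates 2 and 3 its share was 83.0% and 85.0%. Over the same libraries Myh7 held 3.09%, 3.28% and 4.36% in wild type against 1.77% and 0.558% in ADCY3∆AT, and Myh2 held 11.6%, 4.88% and 7.30% against 2.80% and 3.84%. Myh1 held 13.9%, 19.7% and 16.4% in wild type against 12.4% and 10.6% in ADCY3∆AT. The 2 ADCY3∆AT libraries thus had a higher share of Myh4 and lower shares of Myh1, Myh2 and Myh7 than any wild-type library. In ADCY3∆AT replicate 1 the 4 chains had 14 counts together, 8 of them Myh4, or 57.1% of the counts of the fast chains (95% exact binomial interval 28.9% to 82.3%), so its composition could not be resolved at this depth. The same interval for Myh4 was 82.8% to 85.8% of fast-chain counts in replicate 2 and 84.3% to 86.4% in replicate 3. In wild type the 3 intervals lay between 72.7% and 75.5%. Intervals cover counting error only, and since this comparison was chosen after the values had been seen and leaves out 1 library, it was not tested.

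**Figure D3:**
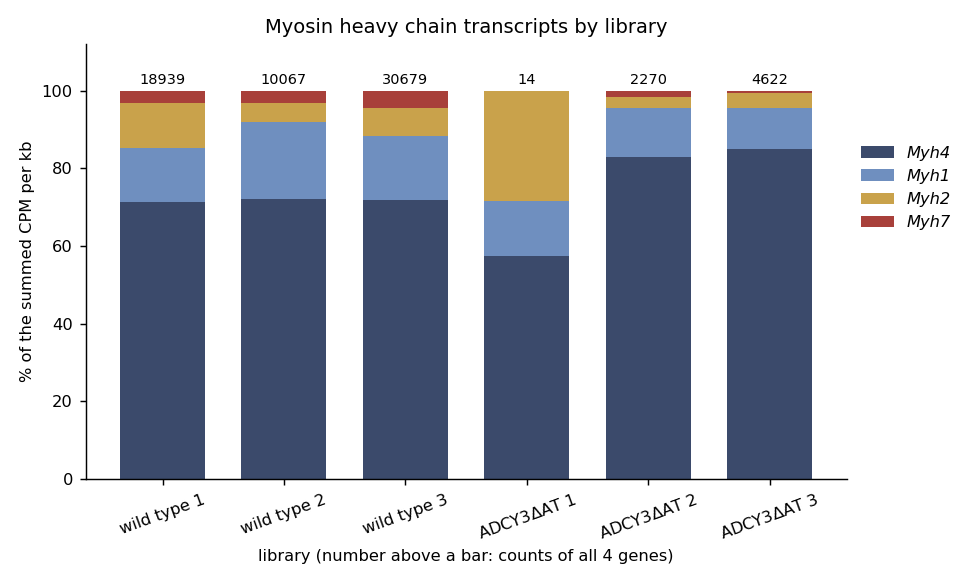
Share of Myh4, Myh1, Myh2 and Myh7 in the summed CPM per kilobase of the 4 myosin heavy chain genes in each library, with the summed counts above each bar. Myh4 takes 71.3% to 72.2% in wild type, 83.0% in ADCY3∆AT replicate 2 and 85.0% in replicate 3, and the bar of ADCY3∆AT replicate 1 rests on 14 counts.

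Each of the 8 thin filament genes had every ADCY3∆AT library under every wild-type library, with 0 passing in edgeR, 4 called in DESeq2 and a median log2 fold change of -3.08. Acta1, skeletal actin, was the gene with the highest level per length of the 39, at 69.7 CPM per kilobase in wild type. It had 73.8, 58.7 and 169.8 CPM in wild type against 0.940, 8.74 and 26.2 CPM in ADCY3∆AT, with a log2 fold change of -3.07 ± 0.86 (SE, edgeR adjusted p = 0.271). Its highest ADCY3∆AT library lay at less than the lowest wild-type library, and its lowest at 43 counts. Acta1 shares 4.11% of its 31-base words with other genes, mostly Actb. Tnnt3, the fast tropomyosin-binding troponin subunit, had 49.1, 31.5 and 82.2 CPM in wild type against 0.0437, 4.51 and 13.7 CPM in ADCY3∆AT. The other fast troponins, the inhibitory Tnni2 and the calcium-binding Tnnc2, had log2 fold changes of -3.16 and -3.06. Tnnc2 overlaps Ube2c on the opposite strand, which takes up 59.0% of its 31-base words, and Ube2c had at most 1.46 CPM in any library. Neb, the ruler protein nebulin, had 151, 91.1 and 267 CPM in wild type against 4.55, 19.4 and 36.2 CPM in ADCY3∆AT.

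Both leiomodins, which nucleate actin filaments, had low counts, and for each the groups did not overlap. Lmod2 had 1.95, 0.999 and 2.95 CPM in wild type against 0, 0.0406 and 0.172 CPM in ADCY3∆AT, a log2 fold change of -4.75 ± 0.72 (SE, edgeR adjusted p = 0.141). This was the lowest fold change of the list and rests on 0 counts in 1 ADCY3∆AT library, so its size is uncertain. It passed in DESeq2 (adjusted p = 0.0027) and without ADCY3∆AT replicate 3. Lmod3 had 2.68, 1.02 and 3.19 CPM in wild type against 0.415, 0.589 and 0.818 CPM in ADCY3∆AT, and also passed in DESeq2 (adjusted p = 0.00152). Tpm2, beta-tropomyosin, which smooth muscle also uses, had 35.4, 29.6 and 65.8 CPM in wild type against 10.3, 11.3 and 14.8 CPM in ADCY3∆AT. The 3 ADCY3∆AT libraries lay close together, unlike those of Acta1, and the log2 fold change was -1.85 ± 0.29 (edgeR adjusted p = 0.141, DESeq2 adjusted p = 0.00162).

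In the thick filament and M-band, titin, encoded by a very long transcript, held most of the counts. Of 6 genes in this group 4 did not overlap and 0 were called in DESeq2, with a median log2 fold change of -2.64 over the 5 tested. Ttn had 1331, 808 and 2481 CPM in wild type against 1.84, 150.0 and 293 CPM in ADCY3∆AT, and held 56.4%, 52.9% and 57.1% of the CPM of all 39 genes in wild type. In ADCY3∆AT it held 1.63%, 41.0% and 44.2%. Per length its wild-type level was 13.6 CPM per kilobase, under that of Acta1. Its log2 fold change was -3.38 ± 1.22 (SE, edgeR adjusted p = 0.377). Mybpc1, a myosin-binding protein C found mainly in slow fibres, had 17.3, 8.74 and 29.7 CPM in wild type against 0.0219, 2.32 and 2.54 CPM in ADCY3∆AT, the first of these a single count. Mybpc2, its fast counterpart, and Myom2, an M-band protein, had log2 fold changes of -2.64 and -2.42, and Myom2 had 8.51, 5.90 and 15.4 CPM in wild type against 0.503, 1.67 and 3.38 CPM in ADCY3∆AT. Myom1, myomesin of the M-band, had 28.9, 17.6 and 31.3 CPM in wild type against 17.6, 19.0 and 16.9 CPM in ADCY3∆AT. These groups overlapped, and the log2 fold change was -0.54 ± 0.19 (edgeR adjusted p = 0.351). Myom1 overlaps Myl12a on the opposite strand, which had 54.3 to 67.4 CPM, but only 1.70% of Myom1's 31-base words are shared with it. Mybph was at 0.306 CPM or less in all 6 libraries.

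Z-disc genes ranged from log2 fold changes close to that of titin to values near the bulk of all genes. Of 11 genes 10 did not overlap and 4 were called in DESeq2, with a median of -2.59. Tcap, telethonin, which caps titin at the Z-disc, had 12.1, 7.49 and 23.4 CPM in wild type against 0.0656, 1.22 and 2.43 CPM in ADCY3∆AT (log2 fold change -3.52 ± 0.72, SE, edgeR adjusted p = 0.166). Nrap, Myot, Myoz1 and the Xin proteins Xirp1 and Xirp2 had log2 fold changes from -3.45 to -1.97, and Myoz3, a low-abundance calsarcin, had -1.73. Myot, Myoz1 and Xirp2 were at 0 counts in ADCY3∆AT replicate 1. Ldb3, the Z-disc protein ZASP (chr14:34526603-34588682, minus strand), had 6.92, 5.63 and 12.3 CPM in wild type against 1.27, 1.65 and 2.26 CPM in ADCY3∆AT. It had the lowest p of the 39 genes, with a log2 fold change of -2.26 ± 0.33 (edgeR adjusted p = 0.141, DESeq2 adjusted p = 8.48e-12). Des, the intermediate filament desmin, which is also made in smooth muscle and pericytes (chr1:75360329-75368579, plus strand), had 52.0, 54.9 and 73.6 CPM in wild type against 40.7, 41.4 and 46.7 CPM in ADCY3∆AT. Its log2 fold change was -0.49 ± 0.13 (edgeR adjusted p = 0.246, DESeq2 adjusted p = 0.0115). Smooth muscle markers other than Des summed to 122 to 142 CPM in wild type and 129 to 140 CPM in ADCY3∆AT, with 0 of 8 passing in edgeR and only Des called in DESeq2. Pericyte markers summed to 714 to 777 CPM in wild type and 752 to 854 CPM in ADCY3∆AT. Sums of the endothelial and Schwann cell marker lists did not overlap between the groups. The same held for the brown adipocyte sums given above. It also held for 10 skeletal myofibre markers, at 488 to 818 CPM in wild type and 224 to 419 CPM in ADCY3∆AT. Most of that sum in each ADCY3∆AT library was Mb, which brown fat also expresses, at 223, 363 and 359 CPM. These sums therefore understate how low the other myofibre markers were, above all in ADCY3∆AT replicate 1. All 10 also belong to the list of other muscle genes used above. The 4 endothelial markers summed to 756 to 821 CPM in wild type and 826 to 885 CPM in ADCY3∆AT, with 0 passing in edgeR and only Cdh5 called in DESeq2. The 4 Schwann cell markers summed to 49.6 to 54.7 CPM in wild type and 40.0 to 45.6 CPM in ADCY3∆AT, with 0 passing in either tool. Most of each Schwann cell sum was Mbp, and all 4 markers had a negative log2 fold change. The part of these cell types in the values of the 39 genes was not tested.

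The alpha-actinins, which crosslink actin at the Z-disc, were a pair of related genes with different profiles. Actn3, the fast-fibre form, had 19.2, 13.8 and 36.6 CPM in wild type against 0.0437, 2.86 and 8.63 CPM in ADCY3∆AT. Actn2, found in all striated fibres, had 7.56, 5.47 and 14.7 CPM in wild type against 2.91, 3.64 and 3.01 CPM in ADCY3∆AT. Per length, Actn3 made up 72.6%, 72.5% and 72.3% of both in wild type. In ADCY3∆AT it made up 1.55%, 45.1% and 74.9%. The third ADCY3∆AT library thus lay close to wild type, and the first held almost only Actn2.

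Muscle-specific chaperones and turnover factors had low counts, and several had small errors. Of 6 genes 5 did not overlap and 4 were called in DESeq2, with a median log2 fold change of -2.68. Klhl41, a Kelch protein that stabilises nebulin and other thin filament proteins (chr2:69670120-69684230, plus strand), had 5.45, 3.32 and 7.66 CPM in wild type against 0.875, 0.914 and 1.53 CPM in ADCY3∆AT. Its log2 fold change was -2.31 ± 0.34 (SE, edgeR adjusted p = 0.141, DESeq2 adjusted p = 4.39e-10). Klhl40, a related Kelch protein, had -3.10 ± 0.67 with 1 count in ADCY3∆AT replicate 1, and is overlapped on the opposite strand by Gm47108, which takes up 20.6% of its 31-base words and had at most 0.0182 CPM. Usp13, a deubiquitinase, had 3.63, 2.68 and 6.10 CPM in wild type against 0.197, 0.549 and 0.732 CPM in ADCY3∆AT, with -3.06 ± 0.45 (edgeR adjusted p = 0.141, DESeq2 adjusted p = 1.92e-11). Smyd1, a lysine methyltransferase needed for myosin assembly, and the small muscle protein Smpx had log2 fold changes of -1.88 and -3.49.

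Trim63 was the exception. It encodes MuRF1, a ubiquitin ligase that marks sarcomere proteins for degradation. It had 8.53, 1.52 and 2.58 CPM in wild type against 1.40, 1.71 and 9.43 CPM in ADCY3∆AT, so 1 library of each genotype was high. The log2 fold change was -0.03 ± 0.81 (SE, edgeR adjusted p = 0.993). Without wild-type replicate 1 it was 1.02 and without ADCY3∆AT replicate 3 it was -1.45. Fbxo32, another muscle ubiquitin ligase that is not one of the 39 genes and was picked with its values known, was likewise highest in these 2 libraries, at 17.1 and 16.9 CPM against 11.2 to 13.6 CPM in the rest.

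The 3 muscle glycolytic enzymes each had every ADCY3∆AT library under every wild-type library. In edgeR 0 of them passed and in DESeq2 2 were called, with a median log2 fold change of -2.39. Pygm, muscle glycogen phosphorylase, had 20.0, 14.1 and 31.4 CPM in wild type against 2.51, 5.51 and 7.77 CPM in ADCY3∆AT (log2 fold change -2.05 ± 0.40, SE, edgeR adjusted p = 0.158, DESeq2 adjusted p = 0.023). Eno3, muscle enolase, had 17.6, 12.6 and 32.4 CPM in wild type against 1.66, 3.92 and 6.31 CPM in ADCY3∆AT (-2.39 ± 0.47, edgeR adjusted p = 0.158, DESeq2 adjusted p = 0.0197). Pgam2, muscle phosphoglycerate mutase, had 4.19, 3.91 and 8.12 CPM in wild type against 0, 0.711 and 1.72 CPM in ADCY3∆AT, a log2 fold change of -2.73 ± 0.78 that did not pass in either tool. The counterparts Eno1, Pgam1, Pygl and Pygb had log2 fold changes of 0.15, 0.05, 0.04 and 0.24, none of which passed, and the difference between the muscle forms and these was not tested. Per length, Eno3 was a small part of both enolases in every library, 1.41% to 3.39% in wild type and 0.152% to 0.705% in ADCY3∆AT. Among 17 broad glycolysis and glycogen genes 0 passed in edgeR and 3 were lower at an unadjusted p under 0.05. The latter were the muscle form of phosphofructokinase, Pfkm (-0.40 ± 0.08), and the phosphorylase kinase subunits Phkg1 (-0.82 ± 0.15) and Phka1 (-0.25 ± 0.07), and DESeq2 called the first and second of them.

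The share of the wild-type level that each gene kept in the library with least muscle RNA, ADCY3∆AT replicate 1, differed widely between genes. The median over the 39 genes was 0.933% of the wild-type mean, beside 99.8% over all genes tested. In replicates 2 and 3 the median was 13.0% and 27.9%. Of the 39 genes 26 kept under 10%, against 0.674% of all genes tested, and 21 of these had values under 1%, against 0.453%. That library was picked for its low sum of other muscle genes. Low kept shares of muscle genes in it follow in part from that choice, so the contrast with all genes is a description only. Ttn kept 0.119% and Myh4 0.0590%. For 7 genes, Lmod2, Mybph, Myot, Myoz1, Xirp2, Smpx and Pgam2, the count was 0, and for Xirp2 that allows up to 0.182% of the wild-type mean at 3 counts, whereas for Mybph it allows 35.1%. With 3 or fewer counts in 15 genes, order among the lowest could not be resolved at this depth.

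The other 13 genes kept 10% or more. Myom1 kept 67.9%, Des 67.6% and Myl1 57.9%, with 95% Poisson intervals reaching up to 72.8%, 70.7% and 61.4%. Trim63 followed at 33.2%, Actn2 at 31.5% and Tpm2 at 23.7%. Xirp1, Lmod3, Klhl41, Ldb3, Smyd1, Myoz3 and Pygm kept between 11.5% and 18.9%, although Myoz3 had only 4 counts. Just inside the limit lay Pygm at 11.5%, and just outside it Eno3 at 7.97%. The limit was set with the values known and separates no natural groups beyond that gap. Per length, Myl1 (15.8 CPM per kilobase) and Des (13.4) were the most abundant of the 39 genes in that library, followed by Tpm2 (4.33) and Myom1 (3.10), while Acta1 had 0.650.

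**Figure D4:**
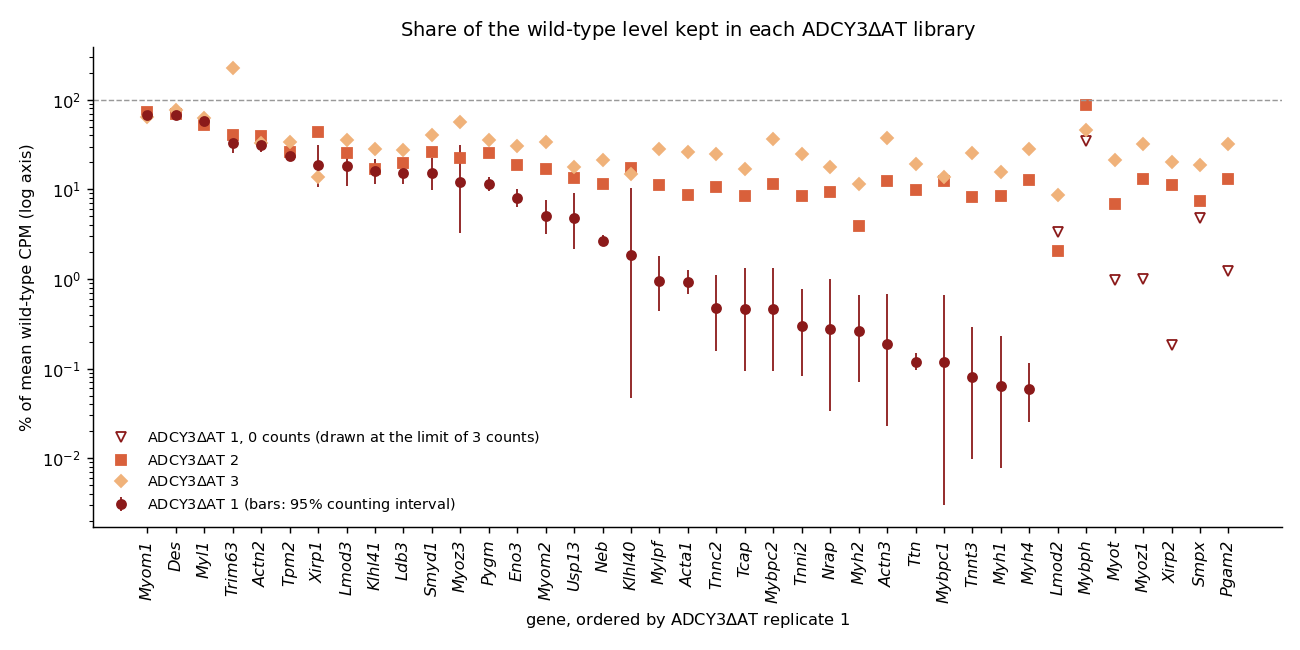
Level of each of the 39 genes in each ADCY3∆AT library as a percentage of its wild-type mean, on a log axis and ordered by ADCY3∆AT replicate 1, with bars for 95% Poisson counting intervals and open triangles at the limit of 3 counts for genes with 0 counts. In replicate 1 the values run from 67.9% for Myom1 down to 0.0590% for Myh4, whereas the medians in replicates 2 and 3 are 13.0% and 27.9%.

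Ratios between libraries other than that one were set beside the kept shares. Between ADCY3∆AT replicates 3 and 2 the median ratio was 1.37 for the 13 genes that kept 10% or more, and 2.26 for the 26 others. The ratios ran from 0.315 to 5.52, the latter for Trim63, among the 13 genes and from 0.530 to 4.24 among the 26 others, so these ranges overlapped. Between wild-type replicates 3 and 2 the median ratio was 2.22 for the 13 genes, from 1.34 for Des to 3.13 for Lmod3, and 2.78 for the 26 others, from 2.08 to 4.38. Des, Myom1 and Myl1 had the 3 lowest ratios of highest to lowest wild-type library, at 1.42, 1.78 and 1.83. These ratios are a description across genes of the same libraries.

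Shares within pairs of related genes also differed between the groups. Tpm2 made up 49.2%, 47.2% and 56.2% of the level per length of Tpm2 and Tpm1 in wild type against 28.0%, 29.3% and 33.9% in ADCY3∆AT. Pygm made up 35.1%, 30.6% and 46.0% of itself and brain glycogen phosphorylase Pygb in wild type against 4.89%, 11.3% and 19.0% in ADCY3∆AT. In both pairs each ADCY3∆AT library lay under each wild-type library. Acta1 made up 85.1%, 81.5% and 91.9% of itself and smooth muscle actin Acta2 in wild type against 6.20%, 34.9% and 68.4% in ADCY3∆AT. Myl1 made up 51.0%, 59.4% and 49.1% of both light chains in wild type against 98.5%, 83.6% and 70.7% in ADCY3∆AT. In these pairs too the groups did not overlap, and no test was run on them because the pairs were chosen with the values known.

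**Figure D5:**
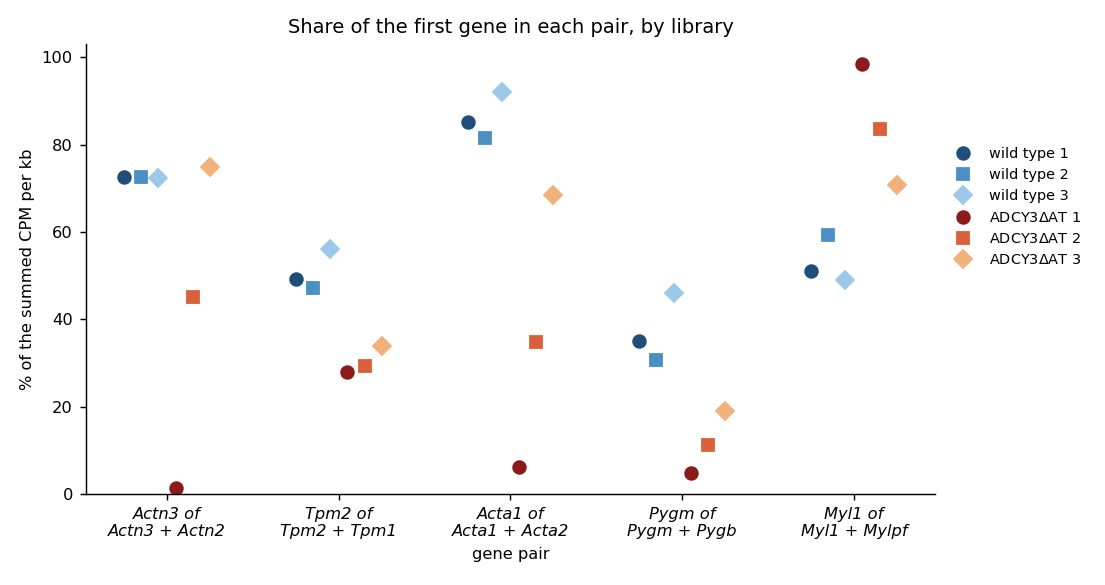
Share of the first gene in the summed CPM per kilobase of 5 gene pairs in each library. The wild-type points for Actn3 lie at 72.3% to 72.6%, the ADCY3∆AT points are scattered from 1.55% to 74.9%, and Myl1 is the first gene whose share is higher in every ADCY3∆AT library than in every wild-type library.

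Muscle genes outside the 39 were read from further lists. In the list of 20 other muscle genes 19 were tested, all 19 had a negative log2 fold change with a median of -3.16, 0 passed in edgeR, 18 were lower at an unadjusted p under 0.05, and 8 were called lower in DESeq2. The lowest p-values belonged to slow-fibre genes, the myosin light chain Myl2 (-5.60 ± 0.75, SE), the troponin Tnni1 (-5.57 ± 0.83) and Myh7 (-5.08 ± 0.77). Mb, myoglobin, which brown fat also makes, had 404, 354 and 423 CPM in wild type against 223, 363 and 359 CPM in ADCY3∆AT. Among 17 other sarcomere and Z-disc genes tested, 16 had a negative log2 fold change with a median of -1.43, 0 passed in edgeR, 12 were lower at an unadjusted p under 0.05 and 9 in DESeq2. Ankrd2 had -4.11 ± 0.55, Csrp3 -5.03 ± 0.81 and Flnc, filamin C, -1.98 ± 0.32. Some other genes of these lists had small log2 fold changes, among them Pdlim7 at 0.20, Ankrd23 at -0.12, Fbxo32 at -0.14, Fbp2 at -0.20 and Fhl1 at -0.28. Of these genes only Fhl1 was called lower in DESeq2 (adjusted p = 0.0153), and it did not pass in edgeR (adjusted p = 0.201). For Fhl1 and Fbp2 every ADCY3∆AT value lay under every wild-type value, as for 8.83% of all genes tested. The gap for Fbp2 was narrow, from 40.7 CPM in wild-type replicate 3 to 40.2 CPM in ADCY3∆AT replicate 3. Fbp2 passed in neither tool (adjusted p = 0.379 in edgeR and 0.458 in DESeq2). Cmya5, a large Z-disc associated protein picked with its values known, had 49.3, 33.0 and 73.7 CPM in wild type against 17.4, 18.6 and 20.7 CPM in ADCY3∆AT.

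Genes of immature, cardiac or regenerating muscle had low counts. Of 8 embryonic and cardiac sarcomere genes only Myl4 passed the filter on low counts, with a log2 fold change of 0.25 ± 0.19 (SE, edgeR adjusted p = 0.672). The 4 satellite cell markers summed to at most 0.204 CPM and the 5 cardiac markers to at most 0.163 CPM in any library. Of 14 muscle regulators 7 were tested and 0 passed in edgeR or DESeq2, with 1 lower at an unadjusted p under 0.05. That gene was Chrna1, a subunit of the muscle acetylcholine receptor (-1.07 ± 0.37). Mef2c had -0.17 ± 0.08 and Musk -0.93 ± 0.66, and Mef2a, Mef2d and Srf lay between -0.08 and 0.05.

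Relatives of the 39 genes that cells outside muscle use had log2 fold changes near 0. Of 14 such genes 13 had a positive log2 fold change, with a median of 0.08, and 0 passed in edgeR, with 1 lower and 1 higher at an unadjusted p under 0.05. The lower gene was Tpm1, alpha-tropomyosin, which striated muscle also uses (-0.55 ± 0.15, SE, edgeR adjusted p = 0.252, DESeq2 adjusted p = 0.00668). The higher gene was the actinin Actn1 (0.28 ± 0.10, edgeR adjusted p = 0.353). Myl9, Actn4 and Tpm4 had 0.03, 0.09 and 0.05, and the non-muscle myosin Myh9 had 0.14. Myoz2, a calsarcin of slow fibres and heart that is not among the 14, is related to Myoz1 and Myoz3 and had 0.601, 0.431 and 1.51 CPM in wild type against 0.0437, 0.0610 and 0 CPM in ADCY3∆AT (-4.48 ± 0.78, edgeR adjusted p = 0.157, DESeq2 adjusted p = 0.000114).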

How the data were processed

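Total RNA from 3 wild-type and 3 ADCY3∆AT samples was sequenced. The authors deposited estimated counts per gene, and the submitters' processing notes name Salmon, StringTie, edgeR and GRCm38 without versions or roles. The sources used here do not say whether counting used strand, nor how the ADCY3∆AT allele was made. Of the 54385 rows of the table, 54131 matched GENCODE M21 and 31.6% of values were not whole, so counts were rounded.

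Genes were filtered with filterByExpr, scaled with TMM factors and tested with the edgeR quasi-likelihood F test (edgeR 4.0.16, R 4.3.3) on genotype alone, with Benjamini-Hochberg adjustment over all genes and a threshold of 0.05. CPM are TMM-scaled, and CPM per kilobase divide by the merged exon length of GENCODE M21 basic transcripts. Kept shares divide a library's CPM by the wild-type mean, with 95% exact Poisson intervals that cover counting error only, as do all intervals and floors of 3 counts. Alternatives were DESeq2 1.42.0, limma 3.58.1 voom, robust estimation, RLE factors, library totals, other filters, each library left out and a replicate block. The fits were tested on simulated data. Shared sequence was measured as 31-base words of each gene's transcripts found in another gene. Promoters are from RefSeq, GRCm38.p6.

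All 39 genes are accounted for by role. Values in every library are given, per role, for the 2 genes with the highest wild-type level per length, the 2 with the lowest p and the one with the highest kept share, and related genes and the 3 lowest p of each further list are named. Other genes given by library were chosen after their values were seen. The genes and lists were chosen with earlier results of these data known. All 6 value columns mapped to samples.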

Additional observations from a re-analysis of the deposited data

How the results depend on the processing

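No gene of the 39 was called lower with edgeR under RLE factors, library totals, robust estimation, a minimum of 1 CPM in 3 libraries, an adjusted p of 0.1 or limma voom. The number was 14 in DESeq2 and 32 in edgeR when low counts were not filtered. Leaving out each library gave 0 to 3. No gene was called higher under any of these. The count lower at an unadjusted p under 0.05 was 37, and 27 to 37 under the alternatives. The median log2 fold change of -2.79 ranged from -3.89 without ADCY3∆AT replicate 3 to -2.22 without ADCY3∆AT replicate 1. The labels do not say whether replicate numbers pair the libraries. Correlations of same-numbered deviations from the group means were -0.09, -0.13 and -0.09. These cannot decide it, because deviations of 3 libraries from their mean sum to 0. A replicate block gave 0 adjusted calls and a median of -3.08. Trim63 changed sign when wild-type replicate 1 (1.02) or ADCY3∆AT replicate 1 (0.38) or 2 (0.35) was left out, its lowest value being -1.45, and the cause was not tested. Over 527 fold changes of single genes, 475 kept direction and side of the threshold, 49 newly passed and 3, all of Trim63, changed sign. In alternatives chosen after seeing the data, 35 to 38 genes did not overlap when 1 library was left out. Non-overlap is easier to reach with fewer libraries, and the share over all genes is not given for these. The median kept share of 0.933% was 0.772% to 1.32% without 1 wild-type library, and 1.23% against the wild-type median. Depth limits the 15 genes with 3 or fewer counts in ADCY3∆AT replicate 1.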
